A study of Homo sapiens with 18 samples.

Results

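The 22RV1 experiment crossed a drug with radiation, and it was used to ask which effects of canagliflozin (CANA) on RNA levels appeared only after radiation (RT) and which were added to those of radiation. It takes in all 12 libraries of 22RV1 cells among the 18 libraries of the series, the other 6 being PC3 cells. 22RV1 is a human line of castration-resistant prostate carcinoma that expresses the androgen receptor. Control cells had DMSO, CANA cells had 10 µM canagliflozin, RT cells had 5 Gy of radiation, and CANA + RT cells had 10 µM canagliflozin with 5 Gy, all harvested at 24 h. Each of the 4 groups had 3 libraries (A, B and C), which the study calls different replicates. Its statistics section speaks of independent experiments in general, but no source used here says for the sequencing that each library came from its own culture, so p-values measure the spread between these libraries, which may be technical. All groups are of a single cell line, and RNA was sequenced from whole cultures.

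Canagliflozin inhibits the renal glucose transporter SGLT2 (SLC5A2), and it also inhibits complex I of the mitochondrial respiratory chain and activates the energy sensor AMPK. Ionizing radiation breaks DNA, which stabilizes p53, and p53 raises CDKN1A (p21), an inhibitor of cyclin-dependent kinases. p21 keeps the retinoblastoma protein active, and the E2F factors that switch on replication genes are then held back. A drug that disturbs mitochondria or amino acid supply can also switch on ATF4, the main transcription factor of the integrated stress response.

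The interaction was the drug effect in irradiated cells (CANA + RT minus RT) minus the drug effect in unirradiated cells (CANA minus control), on the log2 scale. An interaction of 0 therefore means that the drug multiplied the RNA level by the same factor in both states. Values are regularized log2 values (rlog) of normalized read counts, a scale that pulls differences of genes with few reads towards 0. The 14563 genes whose rlog averaged 3 or more were fitted with limma in 1 model of the 12 libraries, and a gene is said to have passed, risen or fallen at a Benjamini-Hochberg adjusted p under 0.05.

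The authors' mean of normalized reads summed to 20191100 per library. Reads of each library were not used here, so the depth behind single values is unknown. The leading principal component held 83.4% of the variance and set irradiated apart from unirradiated libraries, and 8414 genes (57.8%) differed between RT and control. The second component, with 3.69% of the variance, placed the 3 CANA + RT libraries between 2.32 and 4.19 and the 3 RT libraries between -4.08 and -3.02. The median standard deviation of a gene within a group was 0.046 in control, 0.043 in CANA, 0.037 in RT and 0.036 in CANA + RT. All 12 markers of 22RV1 epithelium were above the minimum level, with a summed level of 68065 to 71056 on the linear scale. Of the other markers 0 of 5 endothelial, 6 of 10 fibroblast, 3 of 9 blood cell and 3 of 6 basal epithelial ones were above that minimum. Their summed levels were far lower, at 3.2 to 3.3, 520 to 646, 311 to 440 and 68 to 74 in the same order. SLC5A2 was near the lower limit of detection, with 11.4 normalized reads on average, and its interaction was -0.0023 ± 0.053 (SE, n = 3 per group).

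In this fit of rlog values canagliflozin changed no transcript past the threshold in unirradiated 22RV1 cells and 374 in irradiated ones. The paper's own tests, by DESeq2, called genes for the drug alone too, and more in irradiated cells than passed here. The 0 therefore holds for this fit only. In the CANA against control comparison limma called 0 of 14563 genes (0%), the smallest adjusted p was 0.997, and 421 genes (2.89%) had an unadjusted p under 0.05. That share is lower than the 0.05 that calibrated p-values would give without any drug effect. Between CANA + RT and RT, 374 genes (2.57%) passed, of which 204 (1.4%) rose and 170 (1.17%) fell. A gene called in 1 state and not in the other is not thereby shown to differ, and the interaction itself passed for 15 genes (0.103%), 8 of them positive (0.0549%) and 7 negative (0.0481%). An unadjusted p under 0.05 was reached by the interaction of 1523 genes (10.5%). The interaction was bounded for most of the transcriptome, since its 90% interval lay between -0.25 and 0.25 log2 for 13737 genes (94.3%).

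Genes that rose in irradiated cells had a median drug effect of 0.16 there and of 0.014 in unirradiated cells. Of these 204 genes, 130 (63.7%) were also higher on average with the drug in unirradiated cells, against 49.9% of all genes tested. The 170 genes that fell had medians of -0.16 and -0.010, and 107 (62.9%) were lower without radiation too, against 50.1% of all genes. None of the 374 had a larger effect in the same direction in unirradiated cells, but they had been picked for their effect in irradiated cells. Across all 14563 genes the drug effects of both states, which share no library, had a Pearson r of 0.063 and a Spearman rho of 0.045, a description over genes that are not independent replicates.

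**Figure D1:**
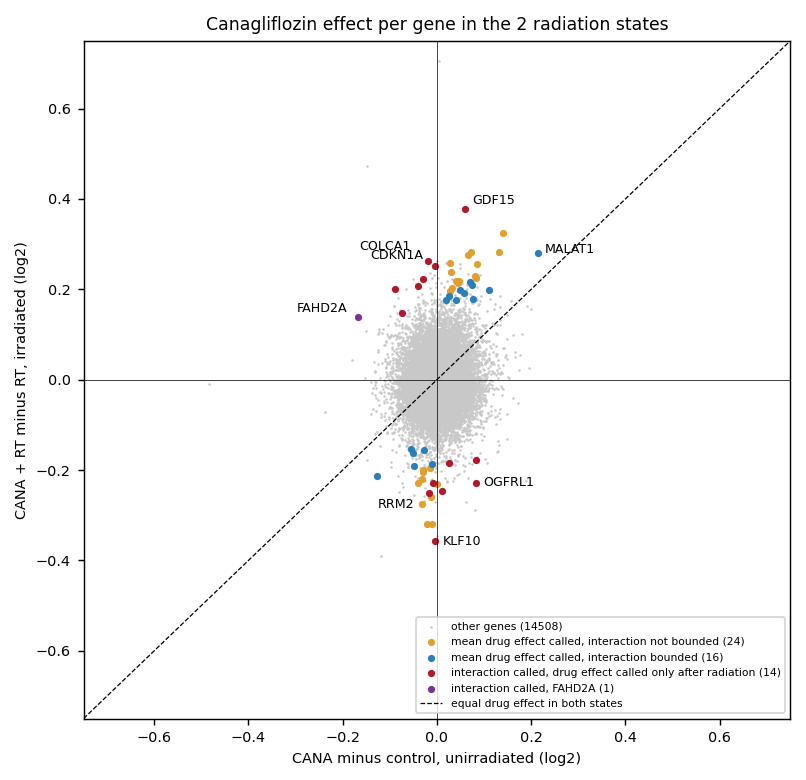
Drug effect of each of 14563 genes in unirradiated cells (CANA minus control, log2, x axis) against that in irradiated cells (CANA + RT minus RT, log2, y axis), with a dashed line where both are equal. Points are group differences of 3 libraries each. GDF15 and KLF10 lie at 0.38 and -0.36 on the y axis and near 0 on the x axis, while MALAT1 lies close to the dashed line.

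GDF15, a secreted stress cytokine of the TGF-beta family that both p53 and ATF4 can induce, had the largest positive interaction (chr19:18374731-18389176, GRCh38). Its rlog values were 12.20, 12.26 and 12.10 in control, 12.16, 12.31 and 12.26 in CANA, 12.59, 12.58 and 12.64 in RT, and 12.97, 12.97 and 12.99 in CANA + RT. The control and CANA libraries overlapped, and every CANA + RT library was above every RT library. The drug effect was 0.059 without radiation and 0.38 with it (1.30-fold, adjusted p = 1.48e-06), and the interaction was 0.32 ± 0.051 (SE, n = 3 per group, adjusted p = 0.0215, limma). RT alone raised GDF15 by 0.42. The effect of RT alone, here and for the genes that follow, shares the RT libraries with the drug effect in irradiated cells, so the values are set side by side only.

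CDKN1A lies at chr6:36676460-36687337 and behaved alike. It read 12.73, 12.83 and 12.71 in control and 12.77, 12.77 and 12.72 in CANA. In irradiated cells it read 13.78, 13.81 and 13.88 in RT and 14.02, 14.08 and 14.12 in CANA + RT. CANA libraries therefore lay within the range of the controls, and the irradiated groups did not overlap. The drug effect was -0.0043 (95% interval -0.075 to 0.066) in unirradiated cells and 0.25 in irradiated cells, a 1.19-fold rise on top of the 1.06 log2 by which RT alone raised the gene. The interaction was 0.26 ± 0.048 (SE, n = 3 per group, limma adjusted p = 0.0293).

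Few other targets of p53 passed. Over all genes 1.4% rose and 1.17% fell with the drug in irradiated cells, and 0.103% passed for the interaction. Of 35 tested p53 targets of arrest, repair and feedback, 4 rose with the drug in irradiated cells and 0 fell, 0 passed in unirradiated cells, and GDF15 and CDKN1A alone passed for the interaction. The median drug effect of the list was 0.046 with radiation and 0.0051 without, beside -0.0023 and -8.08e-05 over all genes. FDXR, a mitochondrial electron carrier gene that p53 activates, was raised by 1.35 by RT alone. It rose by a further 0.15 with the drug in irradiated cells (adjusted p = 0.0142), and its interaction of 0.15 did not pass (adjusted p = 0.254). PHLDA3, a p53 target that restrains AKT, had a drug effect of 0.14 in irradiated cells and an interaction of 0.15, and neither passed (adjusted p = 0.0568 and 0.34). Among 13 p53 targets of cell death 1 rose with the drug in irradiated cells and 0 passed for the interaction, with a list median interaction of 0.010.

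Of the other positive interactions, COLCA1, a gene at a colorectal cancer risk locus, and DCXR, a reductase of the uronate pathway, were lowered by radiation and less so with the drug. COLCA1 read 11.23, 11.18 and 11.13 in control, 11.12, 11.18 and 11.18 in CANA, 10.63, 10.62 and 10.47 in RT, and 10.87, 10.86 and 10.77 in CANA + RT. The radiation effect was thus -0.61 without and -0.33 with the drug, and its interaction was 0.28 ± 0.053 (SE, n = 3 per group, limma adjusted p = 0.0293). DCXR had group ranges of 11.29 to 11.39 in control, 11.24 to 11.35 in CANA, 10.80 to 10.85 in RT and 11.01 to 11.04 in CANA + RT. The radiation effect on DCXR was -0.53 without and -0.28 with the drug, an interaction of 0.25 ± 0.045 (SE, n = 3 per group, limma adjusted p = 0.0275).

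ZFP36, EVA1B and PEX6 were highest in CANA + RT cells. ZFP36 encodes tristetraprolin, which binds AU-rich elements and speeds the decay of cytokine mRNAs. Its range was 9.31 to 9.36 in control, 9.24 to 9.34 in CANA, 9.21 to 9.28 in RT and 9.44 to 9.47 in CANA + RT, with an interaction of 0.25 (limma adjusted p = 0.048). EVA1B, a little studied membrane protein gene, ranged from 8.61 to 8.63 in CANA, below its controls at 8.70 to 8.74, and from 8.76 to 8.85 in CANA + RT, above RT at 8.55 to 8.69. PEX6, an ATPase that recycles the peroxisomal import receptor, rose by 0.15 with the drug in irradiated cells. The interactions of EVA1B and PEX6 were 0.29 and 0.22 (limma adjusted p = 0.0475 and 0.0479).

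FAHD2A, a member of the fumarylacetoacetate hydrolase family, was the exception among the 15 in that its drug effect did not pass in irradiated cells. It read 8.04, 8.06 and 7.99 in control and 7.87, 7.83 and 7.89 in CANA, then 8.00, 8.04 and 8.03 in RT and 8.12, 8.22 and 8.15 in CANA + RT. Treated libraries lay below the controls without radiation and above RT with it. The drug effects were -0.17 and 0.14, of which neither passed on its own (adjusted p = 0.997 and 0.0869), and the interaction was 0.30 (adjusted p = 0.0475). FAHD2A has a near-identical copy in the genome, so reads may have been split between them and the value is uncertain.

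Of the 7 negative interactions 5 were in RRM2, MCM4, EXO1, ESCO2 and ATAD2, genes of DNA replication, repair, cohesion and replicated chromatin, which radiation alone lowered. RRM2 (chr2:10120698-10211725) encodes the small subunit of ribonucleotide reductase, which makes deoxynucleotides. Its values were 12.47, 12.54 and 12.48 in control, 12.48, 12.48 and 12.47 in CANA, 11.50, 11.44 and 11.45 in RT, and 11.26, 11.21 and 11.17 in CANA + RT. Unirradiated groups overlapped and irradiated groups did not. The drug effect was -0.017 (95% interval -0.076 to 0.042) without radiation and -0.25 with it (0.840-fold, adjusted p = 2.58e-05), and the interaction was -0.23 ± 0.041 (SE, n = 3 per group, limma adjusted p = 0.0233). The effect of RT alone on RRM2 was -1.03. In whole cultures, fewer cells in S phase and less RRM2 RNA per cell cannot be told apart.

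MCM4, a subunit of the helicase that unwinds replication forks, lies at chr8:47960185-47978160. It read 12.99, 13.02 and 13.03 in control and 13.02, 12.98 and 13.01 in CANA. After radiation it read 12.35, 12.33 and 12.22 without the drug and 12.09, 12.06 and 12.06 with it. The drug lowered MCM4 in the irradiated libraries, with an effect of -0.23 against -0.0079 without radiation, and the interaction was -0.22 ± 0.042 (SE, n = 3 per group, limma adjusted p = 0.0293).

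EXO1 at chr1:241847967-241895148 encodes an exonuclease of mismatch repair and DNA end resection. EXO1 read 10.34, 10.36 and 10.40 in control, 10.33, 10.40 and 10.40 in CANA, 9.68, 9.67 and 9.69 in RT, and 9.46, 9.45 and 9.38 in CANA + RT. Its interaction was -0.26 ± 0.047 (SE, n = 3 per group, limma adjusted p = 0.0275), and the drug effect without radiation was 0.012. ESCO2, the acetyltransferase that locks cohesin on replicated DNA, ranged from 10.69 to 10.82 in control, 10.81 to 10.90 in CANA, 9.82 to 9.90 in RT and 9.67 to 9.69 in CANA + RT. ATAD2, a bromodomain ATPase found on newly made chromatin, ranged from 12.12 to 12.18 in RT and from 11.97 to 11.98 in CANA + RT. Their interactions were -0.26 and -0.21 (limma adjusted p = 0.0293 and 0.0475).

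The promoters of RRM2 and EXO1 are shown because these are the negative interactions in DNA synthesis and repair for which a promoter sequence was at hand. They are RefSeq sequences of GRCh38.p14, from 250 bases before to 50 after the start, on the plus strand, at chr2:10122489-10122788 and chr1:241847954-241848253. Capitals mark CCAAT boxes in RRM2 and, in EXO1, the cAMP response element TGACGTCA followed by the E2F word TTTCGCGC.
RRM2: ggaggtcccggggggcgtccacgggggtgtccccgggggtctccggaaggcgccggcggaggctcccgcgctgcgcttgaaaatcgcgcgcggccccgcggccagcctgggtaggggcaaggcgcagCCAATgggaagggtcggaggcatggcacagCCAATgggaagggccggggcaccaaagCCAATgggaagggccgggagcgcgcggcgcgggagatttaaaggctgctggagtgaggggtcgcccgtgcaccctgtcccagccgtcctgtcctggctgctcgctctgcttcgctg
EXO1: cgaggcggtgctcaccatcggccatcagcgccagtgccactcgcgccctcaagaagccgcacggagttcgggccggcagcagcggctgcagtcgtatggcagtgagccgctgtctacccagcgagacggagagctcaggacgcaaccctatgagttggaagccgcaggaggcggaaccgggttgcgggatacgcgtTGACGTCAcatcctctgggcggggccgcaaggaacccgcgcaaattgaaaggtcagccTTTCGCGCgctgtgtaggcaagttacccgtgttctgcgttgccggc
Searched on both strands were the E2F words TTTCGCGC, TTTGGCGC and TTTCCCGC, the word TTTGAA of the CHR element, the word CCAAT, the ATF4 word TGATGCAA and the word TGACGTCA. RRM2 held 3 copies of CCAAT, a word found in 36.7% of 11228 promoters of tested genes, and no E2F word as spelled here. EXO1 held TTTCGCGC starting 4 bases past the start, and any of the E2F words stood in 4.58% of those promoters. TGACGTCA, found in 3.12%, began 54 bases before the EXO1 start. Of the 8 genes with positive interactions, all with a promoter sequence, 0 held an E2F word, 3 held TTTGAA (9.63% of all), 4 held CCAAT, 1 held TGACGTCA and 0 held the ATF4 word (0.508% of all). Of the 7 with negative interactions 3 had a promoter sequence, of which 0 held TTTGAA or the ATF4 word. These matches describe letters and are no evidence of binding.

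Many replication genes fell with the drug after radiation. Of 45 tested genes of the DNA replication machinery, 17 fell and 0 rose in irradiated cells, beside 1.17% and 1.4% of all genes, and 0 passed in unirradiated cells. Only MCM4 passed for the interaction, while the median interaction over the list was -0.11, beside -0.0012 over all genes. By library, the list median against the RT mean was -0.111, -0.113 and -0.131 in CANA + RT replicates A, B and C, and it ranged from -0.032 to 0.032 in the RT libraries themselves. Against the control mean the CANA libraries had medians of 0.002, -0.008 and -0.025. ORC1, a subunit of the origin recognition complex, had drug effects of -0.23 with and 0.00040 without radiation, and its interaction did not pass (-0.23, adjusted p = 0.0791). CLSPN, the checkpoint adaptor claspin, and DTL, which marks CDT1 and p21 for degradation, had interactions of -0.24 and -0.18 that also did not pass (adjusted p = 0.0896 and 0.117).

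Further lists of proliferating cells leaned the same way. Of 26 tested E2F family and G1 genes, 9 fell in irradiated cells and 0 rose, beside 1.17% and 1.4% of all genes. Their median drug effect was -0.074 with and -0.014 without radiation. E2F7, an E2F repressor, had the smallest interaction p in the list (interaction -0.24, adjusted p = 0.0517), ahead of CCNE2, the cyclin that opens S phase (-0.25, adjusted p = 0.161), E2F1 (-0.19, adjusted p = 0.171) and E2F8 (-0.19, adjusted p = 0.189). E2F3 had a drug effect of -0.089 in irradiated cells that did not pass. Among 30 genes of homologous recombination and Fanconi repair, 7 fell and 0 rose, and EXO1 alone passed for the interaction. BARD1, BRCA2 and BRIP1, which act with BRCA1 or in its pathway, fell in irradiated cells (-0.21, -0.20 and -0.22), with interactions of -0.26, -0.26 and -0.21 that did not pass (adjusted p = 0.139, 0.189 and 0.224). The list medians were -0.069 with and 0.011 without radiation.

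Nucleotide supply and mitosis moved less evenly. Among all genes 1.17% fell and 1.4% rose in irradiated cells. Of 18 genes of nucleotide supply 3 fell and 1 rose in irradiated cells, with a median of -0.022, and 0 rose after quantile normalization or with a length curve, the trend of each library's values with transcript length, removed. TK1, which salvages thymidine, fell (-0.22), and its interaction of -0.21 did not pass (adjusted p = 0.189). NME1, a nucleoside diphosphate kinase, had an interaction of 0.18 in the other direction (adjusted p = 0.254). Of 63 mitotic genes 4 fell (2 with the length curve removed) and 0 rose, and 0 passed for the interaction. ANLN, KIF11 and MKI67, which serve cytokinesis, the spindle and the chromosome surface, fell in irradiated cells (-0.11, -0.13 and -0.15), whereas UBE2S, which extends ubiquitin chains for the anaphase-promoting complex, had an interaction of 0.15 (adjusted p = 0.224).

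KLF10 and OGFRL1 had the most negative of the interactions that passed, and for these genes the drug countered a rise after radiation. KLF10 is a zinc-finger repressor first known as a TGF-beta early response gene. Its values were 9.66, 9.76 and 9.89 in control, 9.83, 9.71 and 9.77 in CANA, 10.29, 10.36 and 10.49 in RT, and 9.97, 10.03 and 10.08 in CANA + RT. RT alone raised it by 0.61 and RT on top of the drug by 0.26, and the interaction was -0.35 ± 0.069 (SE, n = 3 per group, limma adjusted p = 0.0408). OGFRL1, a relative of the opioid growth factor receptor gene, read 10.96, 10.96 and 11.09 in control and 11.03, 11.05 and 11.19 in CANA. It read 11.64, 11.69 and 11.63 in RT and 11.43, 11.46 and 11.39 in CANA + RT, and its interaction was -0.31 ± 0.053 (SE, n = 3 per group, limma adjusted p = 0.0233). In each of these genes the CANA + RT libraries lay between the unirradiated and the RT libraries.

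**Figure D2:**
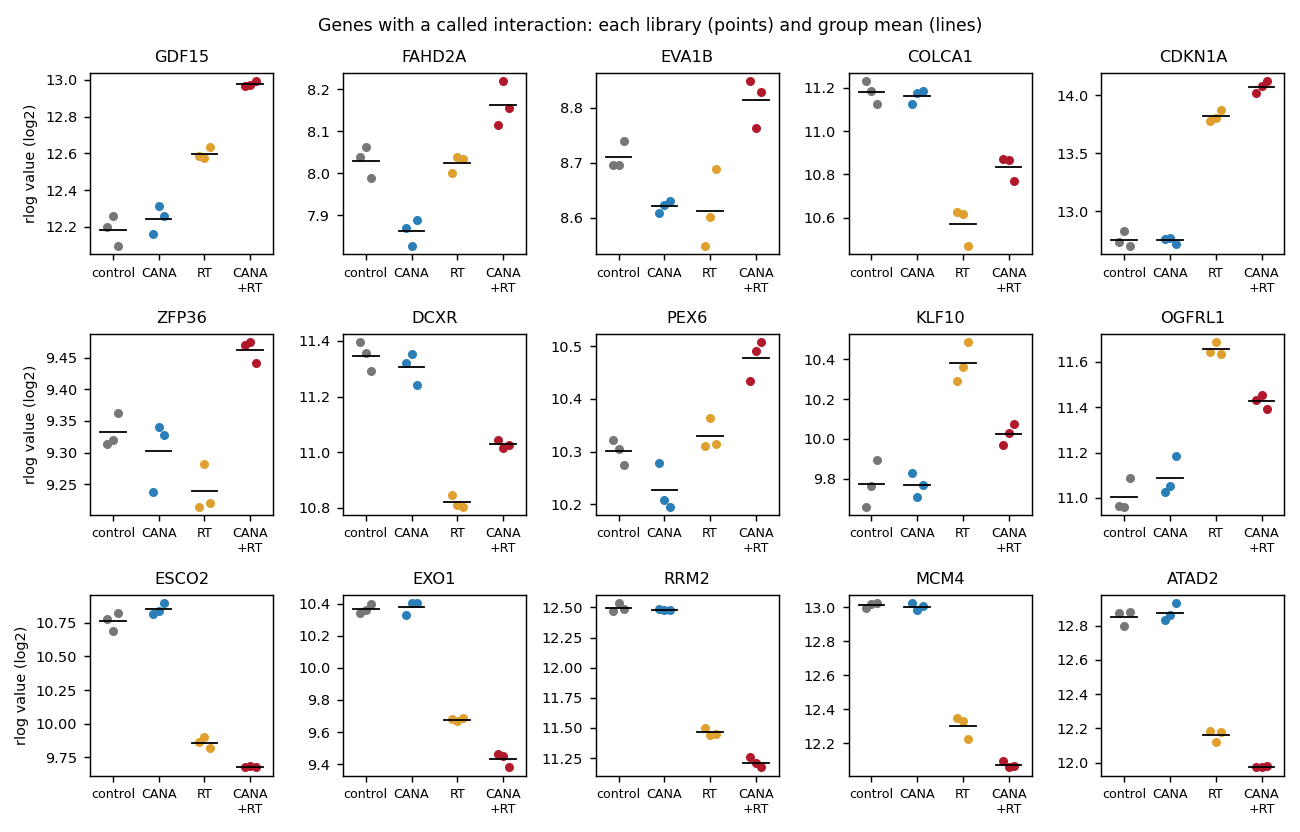
Regularized log2 values (y axis, a separate scale in each panel that does not start at 0) of the 15 genes whose interaction passed, by group (x axis). Points are the 3 libraries of a group and lines their mean. In 14 of the 15 genes the drug effect passed in irradiated cells, beside 2.57% of all genes. The interaction includes that effect, so the number follows in part from how the genes were picked. In unirradiated cells it passed in 0 of the 15, as in 0 of all 14563 genes.

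Among 24 immediate early genes, ZFP36 passed with a positive interaction and KLF10 with a negative one. In irradiated cells 2 of the 24 rose and 2 fell, beside 1.4% and 1.17% of all genes. KLF11, a paralog of KLF10, fell (-0.24, adjusted p = 0.00772) with an interaction of -0.22 that did not pass (adjusted p = 0.259), and KLF2, at 50.6 normalized reads, had an interaction of 0.13 (adjusted p = 0.476). The arrestin-family genes TXNIP and ARRDC4, which MondoA induces when glucose is plentiful, were named after their values were seen. They fell in irradiated cells (-0.39 and -0.35, adjusted p = 0.0145 and 0.00643), after RT alone had raised them by 1.26 and 0.78. Their interactions of -0.27 ± 0.12 and -0.35 ± 0.097 (SE, n = 3 per group) did not pass (limma adjusted p = 0.454 and 0.189), and TXNIP read 11.87, 12.16 and 12.28 in its control libraries alone.

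The study names further genes from its sequencing, some of them from unirradiated or PC3 cells, and for none of the following did the interaction pass. ROCK2, a kinase that acts on the actin skeleton, read 10.76, 10.78 and 10.80 in control, 10.83, 10.79 and 10.84 in CANA, 10.75, 10.73 and 10.81 in RT, and 10.64, 10.62 and 10.56 in CANA + RT. Only the CANA + RT libraries lay below the rest, with a drug effect of -0.16 (adjusted p = 0.00527) and an interaction of -0.19 ± 0.043 (SE, n = 3 per group, limma adjusted p = 0.0791). The gap junction gene GJA1 fell in irradiated cells (-0.15, adjusted p = 0.0294), and the acetyltransferase gene EP300 and the kinase gene TAOK3 had drug effects of -0.11 and -0.098 that did not pass (adjusted p = 0.0542 and 0.0529). Interactions of GJA1, EP300 and TAOK3 were -0.12, -0.096 and -0.095 (adjusted p = 0.427, 0.454 and 0.401). ETV4, an ETS factor downstream of ERK, rose by 0.20 with the drug in irradiated cells, while the effect of RT alone was -0.21. Its interaction was 0.22 (adjusted p = 0.117). ELK1, another ETS factor, had a drug effect of -0.010 and an interaction of 0.012, with a 95% interval of -0.077 to 0.10. GATA2, a partner of the androgen receptor, had an interaction of 0.17 (adjusted p = 0.189).

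Additivity was assessed from an interval rather than from a missing p. The mean drug effect over both states passed for 47 genes (0.323%), 27 of which (0.185%) rose and 20 (0.137%) fell. In 7 of them the interaction had passed too. In 16 of the other 40 the 90% interval of the interaction lay within -0.25 to 0.25 log2, and these are called additive within that margin. For 24 the interval reached beyond the margin, so they stay undecided. The mean and the interaction are separate contrasts of the 12 libraries. All 47 genes had the larger drug effect in irradiated cells, against 62.3% of all genes tested, and the 90% interval excluded 0 for 13 of the 16 additive and 23 of the 24 undecided genes. A bound of 0.25 is thus wide beside the effects themselves, since the additive genes' mean drug effects measured 0.092 to 0.25 in size.

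MALAT1, MSMO1 and RCAN1 were the 3 additive genes whose interval included 0. MALAT1, an abundant nuclear long noncoding RNA, read 13.63, 13.48 and 13.57 in control, 13.66, 13.83 and 13.84 in CANA, 13.94, 13.97 and 14.06 in RT, and 14.46, 14.33 and 14.02 in CANA + RT. All CANA libraries were above the controls, and 1 CANA + RT library lay within the range of RT. The drug effects were 0.21 and 0.28, and the interaction was 0.067 (90% interval -0.094 to 0.23). MSMO1, a demethylating oxidase of cholesterol synthesis, had drug effects of 0.11 without and 0.20 with radiation, and RCAN1, an inhibitor of calcineurin, had -0.13 and -0.21. The interaction of RCAN1 was -0.084 (90% interval -0.21 to 0.044) and that of MSMO1 0.087 (90% interval -0.032 to 0.21).

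The other additive genes are additive only within the margin, since the 90% interval of the interaction excluded 0 for each of them. Some of them rose. DDIT3 (CHOP), a death-promoting factor downstream of ATF4, had drug effects of 0.070 and 0.22 (interaction 0.15, 90% interval 0.044 to 0.25). VEGFA, the angiogenic growth factor, had 0.074 and 0.21, and its CANA libraries, at 10.97 to 11.03, lay above the controls, at 10.92 to 10.95. SLC2A1, the glucose transporter GLUT1, had 0.077 and 0.18, the glutamine transporter SLC1A5 0.057 and 0.19, and VGF, a neuroendocrine peptide precursor, 0.050 and 0.20. RPL36, a protein of the large ribosomal subunit, had 0.020 and 0.18. Additive genes that fell were the replication genes MCM2 (-0.049 and -0.19), FEN1 (-0.052 and -0.16) and DTL (-0.011 and -0.19), the repair gene BRCA1 (-0.028 and -0.16) and KANK2, a scaffold of the cell cortex (-0.054 and -0.15). IGBP1 was additive too. For DTL the 90% interval of -0.25 to -0.10 only just stayed inside the margin, and its drug effect without radiation had a 95% interval of -0.073 to 0.051.

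**Figure D3:**
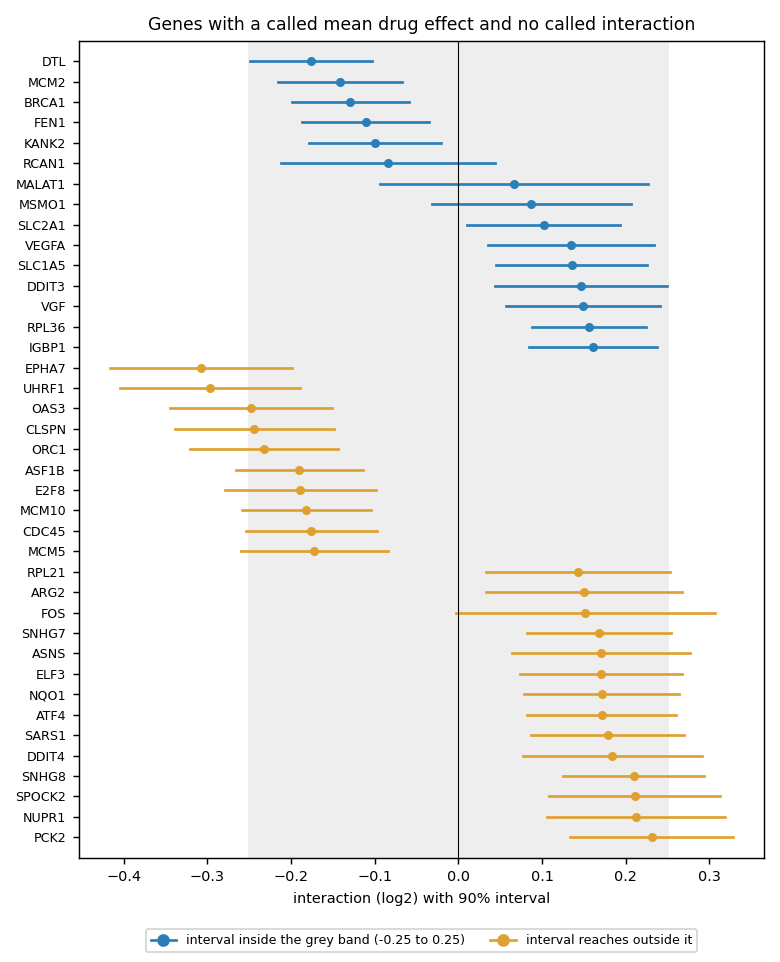
Interaction on the log2 scale (x axis, points) with its 90% interval (lines) for 39 of the 40 genes (y axis) whose mean drug effect passed and whose interaction did not. The grey band spans -0.25 to 0.25 and the intervals of the additive genes stay inside it. Only the intervals of MALAT1, MSMO1, RCAN1 and FOS include 0.

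Some factors of the integrated stress response rose with the drug after radiation. Of 21 tested genes 7 rose, beside 1.4% of all genes, and 0 fell in irradiated cells, and 0 passed in unirradiated cells and 0 for the interaction. The median drug effect was 0.13 with and 0.065 without radiation, and 20 and 18 of the 21 effects were positive. List medians by library were 0.010, 0.095 and 0.087 in CANA and 0.133, 0.156 and 0.108 in CANA + RT. ATF4 itself had drug effects of 0.031 and 0.20 and an interaction of 0.17 (adjusted p = 0.227). DDIT4, a brake on mTORC1, had drug effects of 0.14 and 0.32. It read 10.84, 10.64 and 10.75 in control, 10.81, 10.98 and 10.86 in CANA, 11.44, 11.49 and 11.60 in RT, and 11.84, 11.87 and 11.80 in CANA + RT. NUPR1, a stress-induced chromatin protein, had 0.065 and 0.28. ATF3 had 0.12 and 0.17, neither of which passed, and FOS 0.13 and 0.28, with interactions of 0.044 and 0.15 (adjusted p = 0.871 and 0.58). ELF3, an epithelial ETS factor, had 0.048 and 0.22 (interaction 0.17, adjusted p = 0.288).

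Enzymes of serine, asparagine, proline and one-carbon synthesis, many of them ATF4 targets, gave a similar picture. Of 16 genes 3 rose and 0 fell in irradiated cells, beside 1.4% and 1.17% of all genes. The list medians were 0.10 with and 0.015 without radiation. PHGDH, the first enzyme of serine synthesis, rose by 0.22 and ASNS, asparagine synthetase, by 0.26, and GPT2, a mitochondrial transaminase, rose by 0.13. PYCR1, the last enzyme of proline synthesis, had 0.11 (adjusted p = 0.0578). The interactions of these 4 genes were 0.20, 0.17, 0.16 and 0.13 and did not pass (adjusted p = 0.25, 0.341, 0.163 and 0.297).

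Cytosolic ribosomal proteins formed the longest of the gene lists examined and had the largest number of risen genes. Of 77 tested genes 34 rose and 0 fell with the drug in irradiated cells, beside 1.4% and 1.17% of all genes. The 3 CANA + RT libraries lay above the 3 RT libraries for 73 of the 77, against 12.2% of all genes. In unirradiated cells 0 passed and for 0 of the 77 did the CANA libraries lie beyond the controls, against 6.36% of all genes in either direction. The median drug effect was 0.14 with and 0.040 without radiation, and the list medians by library were 0.132, 0.106 and 0.176 in CANA + RT against -0.013 to 0.011 in RT. The control libraries differed more among themselves, with medians of 0.099, -0.071 and -0.033, than the drug moved the list there, and the CANA libraries had 0.012, 0.099 and 0.012. For 0 of the 77 did the interaction pass. Many of these genes have near-identical processed copies, and how reads shared with them were counted is not given in the sources used here. RPS15, RPL36, RPS28 and RPL18, with the smallest interaction p, had interactions of 0.18, 0.16, 0.18 and 0.15 (adjusted p = 0.137, 0.139, 0.139 and 0.189).

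Transcript length moved with these results. Of 1031 genes with a transcript under 1000 bases 53 rose and 1 fell in irradiated cells. Of 5429 genes of 4000 bases or more 27 rose and 106 fell. Over all genes 1.4% rose and 1.17% fell. The median interaction was 0.043 and -0.028 in these length classes. After a length curve was removed from each library, 14 ribosomal protein genes rose in place of 34 and 0 fell, 16 replication genes fell in place of 17, and 14 genes passed for the interaction, of which 12 were among the 15. With libraries quantile normalized 20 ribosomal protein genes rose.

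Nuclear long noncoding RNAs and hosts of small nucleolar RNAs were also higher. In irradiated cells 7 of 16 rose and 0 fell, beside 1.4% and 1.17% of all genes. The list medians were 0.14 with and 0.034 without radiation. The hosts SNHG8, SNHG7 and SNHG1 rose by 0.24, 0.20 and 0.13, with interactions of 0.21, 0.17 and 0.12 that did not pass (adjusted p = 0.103, 0.224 and 0.388). TUG1, a long noncoding RNA outside the host class, had -0.073 in irradiated cells (adjusted p = 0.177). Genes encoded in mitochondrial DNA showed the opposite order of medians, 0.11 without and 0.039 with radiation, and a median interaction of -0.076, and 0 of 13 passed for any of the 3 comparisons. By library the list medians were 0.006, 0.168 and 0.136 in CANA against 0.028, -0.1 and 0.073 in control, so CANA replicate A lay within the control range. In CANA + RT they were 0.074, 0.021 and 0.024. With the length curve removed the median with radiation was 0.0040. ND2 and CYTB, a complex I and a complex III gene, had drug effects of 0.11 and 0.098 without radiation and -0.022 and -0.014 with it, and ND5 had 0.043 and -0.042. ND6, read from the other strand, had -0.039 and 0.11, and the interactions of these 4 genes did not pass (adjusted p between 0.455 and 0.622).

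**Figure D4:**
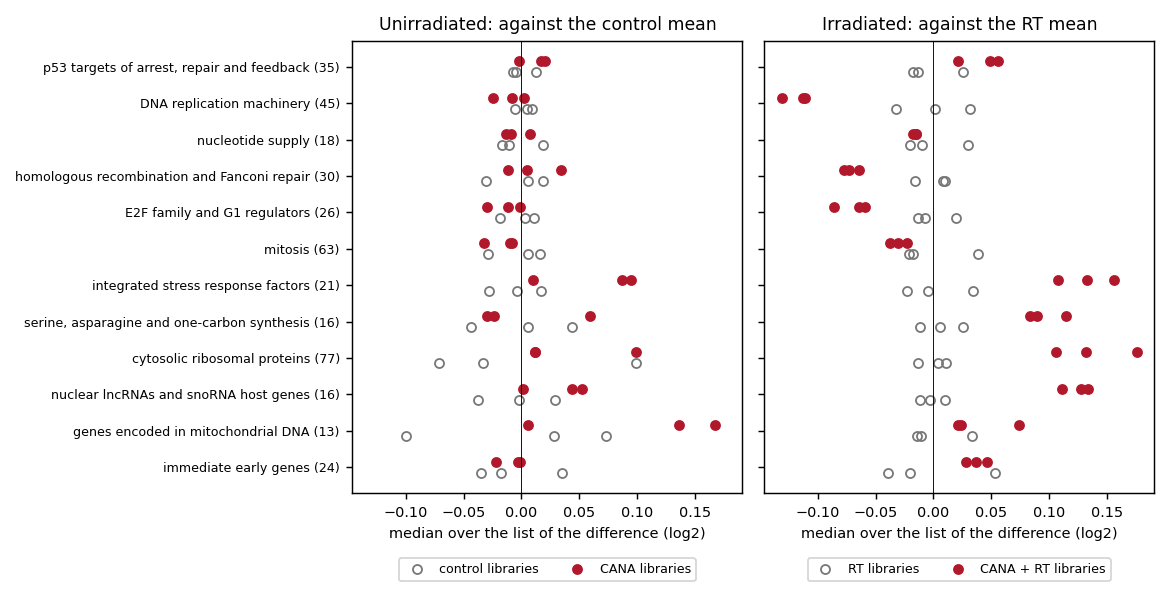
Median over each gene list (y axis, number of tested genes in parentheses) of the difference from the control mean in unirradiated libraries (left) and from the RT mean in irradiated libraries (right), in log2 (x axis). Filled points are the 3 drug-treated libraries and open points the 3 reference libraries. For DNA replication the CANA + RT libraries sit between -0.131 and -0.111, and for ribosomal proteins between 0.106 and 0.176, apart from RT, while the ranges of CANA and control libraries overlap.

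Nuclear genes of the respiratory chain, the pathway the drug is known to inhibit, had few calls, although many had CANA + RT libraries above RT. Of 35 complex I subunits 1 rose and 0 fell in irradiated cells, with medians of 0.071 with and 0.0098 without radiation, and of 38 nuclear subunits of complexes II to V likewise 1 rose and 0 fell, beside 1.4% risen among all genes. Every CANA + RT library lay above every RT library for 20 of the 35 and 22 of the 38, against 12.2% of all genes. After median centring or quantile normalization 3 complex I subunits rose, and with the length curve removed the medians with radiation fell from 0.071 to 0.034 and from 0.063 to 0.035. Mitochondrial ribosomal proteins gave 4 risen of 72, glycolysis and HIF-1 targets 5 of 30, cholesterol synthesis 3 of 24, cytosolic aminoacyl-tRNA synthetases 4 of 19, ERK feedback genes 3 of 16 and NRF2 targets with ferritin 3 of 20, with 0 fallen in each. With the length curve removed the first 4 of these lists had 1, 3, 1 and 2 risen genes. For 0 genes of these lists did the interaction pass. Genes of the androgen receptor and prostate lineage had a median interaction of 0.0025, with 1 of 20 risen in irradiated cells.

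How many genes passed for the interaction rested on single libraries. Against 15 with all libraries, it was 1, 25 and 116 without control replicate A, B or C and 14, 4 and 5 without CANA replicate A, B or C. It was 5, 0 and 15 without RT replicate A, B or C, and 5, 3 and 0 without CANA + RT replicate A, B or C. GDF15 passed in 10 of these 12 fits and OGFRL1 in 9, RRM2 and DCXR in 6, CDKN1A and EXO1 in 5, COLCA1 and ESCO2 in 4, EVA1B, PEX6, KLF10 and MCM4 in 3, ZFP36 and ATAD2 in 2 and FAHD2A in 1. The signs of all 15 stayed as they were in every fit tried. Against 374 with all, the drug effect in irradiated cells passed for 128, 95 and 236 genes without RT replicate A, B or C. It passed for 119, 188 and 109 without CANA + RT replicate A, B or C. Without control replicate A, B or C it passed for 530, 574 and 564, and without CANA replicate A, B or C for 472, 329 and 509. Against 16 with all, the number of additive genes fell to 0 without CANA replicate B or RT replicate A or B. It fell to 1 without CANA + RT replicate A or C and to 3 without B. It was 251 without control replicate A and 134 without CANA replicate A. The number was 11 and 17 without control replicate B or C, 16 without CANA replicate C and 12 without RT replicate C. EPHA7, an ephrin receptor gene, and UHRF1, which maintains DNA methylation, both named after their values were seen, fell just short of the threshold, with interactions of -0.31 and -0.30 (adjusted p = 0.0501 and 0.0532).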

How the data were processed

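RNA was sequenced as single-end reads from directional libraries of 22RV1 cells. The authors trimmed the reads (Trimmomatic, Cutadapt), mapped them to hg38 using HISAT2, used featureCounts for reverse-stranded exon counts and transformed the counts with the rlog function of DESeq2. Tool versions are not given in the sources used here. The deposited values are on this log2 scale, and the deposited signal column is the authors' mean of size-factor normalized reads per gene over the 12 libraries. Depth per library is unknown, so no counting interval was given. Fold changes, p-values and statistics of the authors' own comparisons, held in the same tables, were not used. In 7 sheets of 1 gene each, 54 columns of values without a sample name were not used.

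The deposited tables of both drug comparisons were joined by gene symbol to 20967 genes. Libraries present in a further table differed by at most 5e-09 (20962 genes compared), so the 12 libraries share 1 transformation. Genes without a symbol, of which the first of these held 301 with 0.0606% of the summed mean reads, were left out, as were the 6404 genes with a mean rlog under 3. R 4.3.3 and limma 3.58.1 (trend) fitted the 4 group means to 14563 genes, and p-values were adjusted over all of them by the Benjamini-Hochberg method. The paper's pairwise DESeq2 tests need counts and were not run.

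A gene was additive where the mean drug effect passed, the interaction did not and the 90% interval of the interaction lay within 0.25 log2 of 0. Named were, per direction, up to 12 interactions that passed with a mean rlog of at least 7 and no overlap of libraries in a drug contrast, genes the paper names from its sequencing, SLC5A2, up to 8 additive genes per direction, and the 4 members of each described list with the smallest interaction p. Some of the genes so named are not reported here. Members and lists were chosen with earlier results of these data known. GENCODE v44 gave positions and transcript lengths for 14002 of the tested genes.

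In simulated data with the spread of these libraries, the interaction fit over 14563 genes found 12%, 54%, 84% and 100% of 50 planted interactions of 0.15, 0.25, 0.35 and 0.5 log2 and called 5 genes that had none. The noise was drawn independently for each gene and library, so shifts that many genes share in a library were not simulated. With such shifts these numbers may differ. All sizes were planted together in the same simulated data set, where more genes passed than in the measured data. An adjusted p under 0.05 was then easier to reach, so the shares found may be too high for the measured data. Alternatives were other filters, scalings, spread estimates, thresholds and scales, a replicate block, a length curve and leaving out each library.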

Additional observations from a re-analysis of the deposited data

Results flagged for a closer look

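The drug effect differed between irradiated and unirradiated cells, by limma's test of the interaction, for 15 of 14563 genes. On the log2 scale the interaction was 0.318 for GDF15, 0.305 for FAHD2A, 0.290 for EVA1B, 0.283 for COLCA1, 0.256 for CDKN1A, 0.252 for ZFP36, 0.249 for DCXR and 0.221 for PEX6. It was -0.353 for KLF10, -0.312 for OGFRL1, -0.261 for ESCO2, -0.257 for EXO1, -0.234 for RRM2, -0.220 for MCM4 and -0.208 for ATAD2. In 14 of them, FAHD2A being the other, the drug effect passed in irradiated cells, beside 2.57% of all genes. The interaction includes that effect, so this is no separate result. Groups of 3 libraries were too small to look for single outlying libraries.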

How the results depend on the processing

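The counts of called genes depended on how the spread was estimated. The interaction passed for 0 genes without the filter on low values, without limma's trend, on the linear scale and at an adjusted p under 0.01, for 32 at one under 0.1, for 77 with array weights and for 36 with the tables fitted apart, against 15. The drug effect in irradiated cells passed for 105 genes without the filter, 139 without the trend, 155 on the linear scale, 1148 with array weights and 1188 with the tables apart, against 374. For the mean drug effect these numbers were 1, 1, 1, 277 and 114, against 47. Additive genes numbered 0 without the filter, 0 without the trend, 203 with array weights, 64 with the tables apart, 0 at a margin of 0.15 and 38 at one of 0.35, against 16. A further class took genes whose interaction passed and whose drug effect passed in irradiated but not in unirradiated cells. The 95% interval of the effect without radiation also had to lie within 0.25 log2 of 0. This class numbered 0, 0, 72 and 34 genes in the first of these settings, against 14. It does not show that the drug did nothing without radiation. There the intervals of EVA1B (-0.17 to -0.0043) and PEX6 (-0.14 to -0.0078) lay on the opposite side of 0. So did those of OGFRL1 (0.0070 to 0.16) and ESCO2 (0.011 to 0.15). Leaving out 1 library at a time gave 0 to 116 interactions, 95 to 574 drug effects in irradiated cells, 3 to 305 mean drug effects, 0 to 251 additive genes and 0 to 94 genes of the further class. In unirradiated cells 0 genes passed in every setting tried. Samples were not paired by library letter in the fit, as no source used here states a pairing. Of 18 same-letter correlations 4 exceeded 0.1 (-0.14 to 0.43), and 1 of 12 libraries correlated best with its own letter throughout. These values do not settle whether the letters mark a pairing. A replicate block gave 21 interactions, 479 drug effects in irradiated cells and 25 additive genes. The interaction of SLC5A2 was 0.0037 after quantile normalization. Signs changed on leaving out 1 library for values near 0, namely the interactions of SLC5A2 (-0.0321 to 0.0183), ATF3 (-0.0239 to 0.104), ELK1 (-0.0117 to 0.0346) and MALAT1 (-0.0288 to 0.194) and the drug effects in irradiated cells of SLC5A2 (-0.0137 to 0.0368), ELK1 (-0.0234 to 0.00204) and CYTB (-0.0337 to 0.0123). Causes of these shifts were not tested, and depth per library is unknown.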
